A study of Homo sapiens with 4 samples.

Results

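The comparison described here is the response of A375 human melanoma cells to an siRNA against ZIC5, read from 2 of the 4 arrays of the series. A375 is an established melanoma line, and 1 array measured its RNA 48 h after transfection of a negative control siRNA and the other 48 h after transfection of the ZIC5 siRNA. The other 2 arrays hold the same pair of transfections in SK-MEL-28, another established melanoma line, and serve here only for side-by-side values. The members are all genes represented by a probe set that names 1 gene and averages log2 5 (intensity 32) or more over the 4 arrays. Where a gene had several such probe sets, the one with the highest mean was used. Of 19775 genes with a single-gene probe set, 13794 met the level minimum. Each value was deposited as a linear intensity, each difference below is log2 intensity with ZIC5 siRNA minus log2 intensity with control siRNA, and a pair of intensities joined by "to" runs from control siRNA to ZIC5 siRNA. A difference of 1 is a 2-fold difference, the size rule used throughout. With 1 array per group, 0 residual degrees of freedom remained, so no difference has a replicate check and no test was made. The labels give neither the sequence nor the number of the siRNAs, they name no culture or passage, and no array is of untransfected cells. An effect of ZIC5 loss thus cannot be told apart from another effect of this siRNA or from the spread between 2 dishes.

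ZIC5 belongs to the ZIC family of zinc-finger transcription factors, which act in the neural tube and neural crest, the embryonic tissue that also gives rise to melanocytes. Its study in melanoma has centred on growth, survival and invasion, and siRNA against its messenger is a loss-of-function test at the RNA level. Transcripts of the S phase and of mitosis are made anew in each round of division, driven first by the E2F factors and later by the MuvB complex with MYBL2 and FOXM1. ATF4 is a stress-induced factor that drives genes of amino acid synthesis and uptake. Growth factor signalling through ERK is read out within minutes to hours by the early response factors EGR1 and FOS and by the phosphatases that switch ERK off again.

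The targeted messenger was too weak on these arrays to serve as a check of the labels. The single ZIC5 probe set read 16.8 with control siRNA and 14.1 with ZIC5 siRNA, both under the level minimum, and the control reading stood at percentile 18.1 of all genes. ZIC2, its closest measurable relative, read 166 to 82.6, a difference of -1.01 (SK-MEL-28 -0.28), and ZIC1 read 226 to 170.3 (-0.41). The line itself carried its neural crest markers in both arrays: SOX10 read 895 to 1659.7, MITF 357 to 235, PAX3 213 to 333 and S100B 413 to 334. The pigment markers searched read low in this line. TYR was at 33.5 to 26.7, PMEL 32.4 to 35.9, MLANA 13.9 to 17 and TYRP1 7.51 to 8.10. In that order they stood at percentiles 31.6, 30.8, 15.1 and 7.30 of all genes in the A375 control. The SK-MEL-28 control array read 1373, 10480, 18210 and 1226 for the same genes. OCA2 and GPNMB, described below, read higher in A375. The A375 arrays thus held the neural crest markers, while the pigment markers TYR, PMEL, MLANA and TYRP1 were at the low end. Of 14 measured markers of keratinocytes, leukocytes, endothelium and fibroblasts, 5 were under intensity 32 in the A375 control, and their summed intensity was 3902 to 4147. KRT10 (2958 to 3327) and KRT14 (358 to 320.2) made up most of that sum. The fibroblast proteoglycan LUM differed by -3.44, at 162 to 14.9 (-2.34 with values under 32 set to 32), while the fibroblast markers DCN (47.4 to 46.4), COL1A1 (190.2 to 152) and COL3A1 (14.2 to 13.2) differed by -0.03, -0.32 and -0.10.

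The response was broad and shallow. Over the 13794 genes the median difference was -0.01 and the SD 0.60, and the lower and upper quartiles were -0.32 and 0.30. At the size rule 8.95% of genes differed: 537 genes (3.89%) stood 2-fold or more above control and 697 (5.05%) 2-fold or more below it. At 4-fold the balance turned, with 78 genes higher (0.565%) and 50 lower (0.362%), and at 8-fold it was 16 higher (0.116%) and 3 lower (0.0217%). By any amount, 48.5% of genes were higher and 51.2% lower. These shares, with the 3.89% and 5.05% at 2-fold, are the background for the counts of list members below. In SK-MEL-28 the same rule gave 107 higher (0.776%) and 292 lower genes (2.12%), 2.89% together, and by any amount 50.2% were higher and 49.6% lower. The share past 2-fold depended on level: it was 3 of 282 genes in each direction above log2 12, against 126 higher and 154 lower of 2289 genes between 7 and 8.

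**Figure D1:**
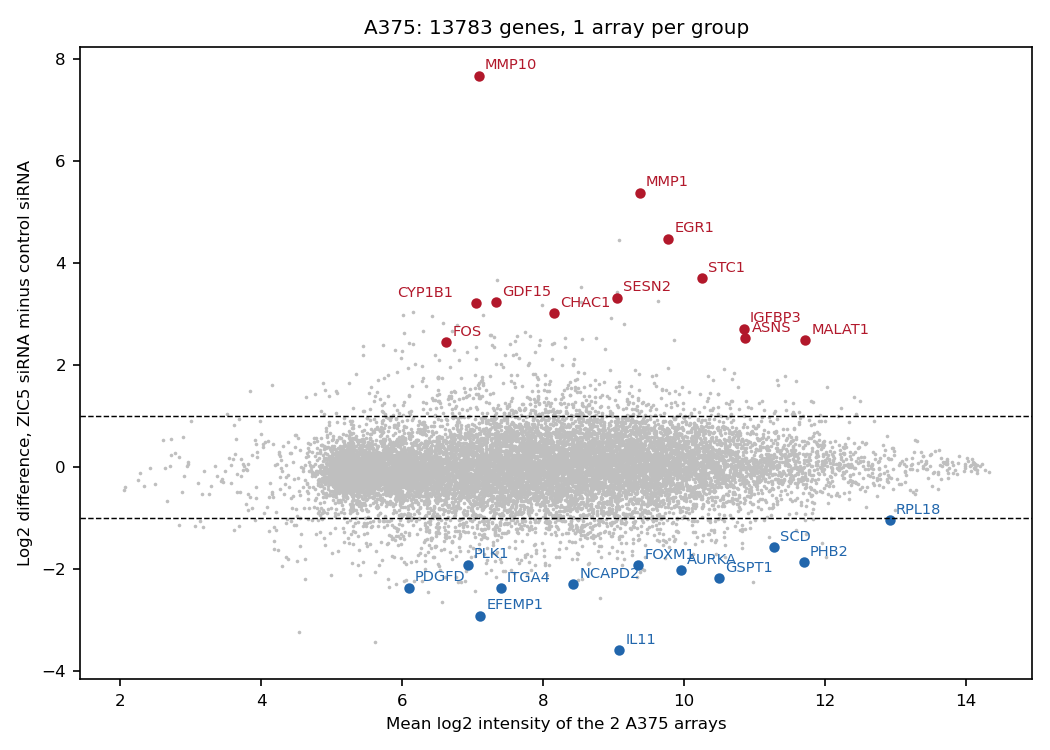
Log2 intensity difference (ZIC5 siRNA minus control siRNA, A375) against the mean log2 intensity of the 2 A375 arrays for 13783 of the 13794 genes, 1 grey point per gene, with dashed lines at the 2-fold limits and coloured points for 24 named genes. The 537 genes above the upper line reach 7.67 (MMP10) and the 697 below the lower line reach -3.59 (IL11).

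Several checks bear on single genes. The median SD between probe sets of the same gene was 0.25, the only spread these arrays offer. Of the 288 genes 2-fold higher that had 2 or more probe sets at the level minimum, 229 had every probe set higher and 91 had every one 2-fold higher. On the lower side the numbers were 322, 260 and 104. Setting intensities under 32 to 32 kept 522 of the 537 higher and 644 of the 697 lower genes. The nearest genes at the limit were LOC100190986 (1.0003) and the lncRNA FTX (1.001) just inside and CALCOCO2 (0.9988) and IRX5 (0.9983) just outside on the higher side. On the lower side PHLPP1 (-1.0016) and GPR143 (-1.0017) lay just inside and PPAT (-0.9999) and DNAJC18 (-0.9998) just outside.

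The largest positive differences belonged to secreted proteases. MMP10, a stromelysin that cuts many matrix proteins, read 9.53 to 1943. MMP1, the interstitial collagenase, read 103 to 4284, and MMP3, another stromelysin, 20.5 to 55.8. Because MMP10 and MMP3 started under intensity 32, their differences of 7.67 and 1.44 became 5.92 and 0.80 with values under 32 set to 32, while that of MMP1 was 5.38 either way. The other secreted enzymes of the family went other ways: MMP9, a gelatinase, read 103 to 42.4 (-1.28) and MMP8, the neutrophil collagenase, 107 to 40.1 (-1.41). By the RefSeq order of protein-coding genes, MMP8, MMP10, MMP1 and MMP3 stand next to one another on chromosome 11. MMP10 and MMP3, on either side of MMP1, were higher as it was, MMP8 beyond MMP10 was lower, and MMP12 and MMP13 beyond MMP3 stayed under the level minimum. PDGFD, 6 genes beyond MMP1, was lower, at 155 to 30.2. Of the other protease groups, MMP14, the membrane-bound activator, read 399 to 681 (0.77), MMP16 829.8 to 1866 (1.17), the urokinase gene PLAU 56.2 to 30.2 (-0.89) and its receptor PLAUR 1114 to 1496 (0.43). TIMP1, an inhibitor of these enzymes, read 4864 to 9121, one of the largest gains in absolute intensity. The 4 measured inhibitors had a median of -0.01, 2 higher and 2 lower, with TIMP2 at -0.47 and TIMP3 at -0.27. In SK-MEL-28 MMP10 and MMP1 differed by -0.27 and -0.47. The 28 measured protease genes had a median of 0.04, near the -0.01 of all genes. At least 2-fold higher were 5 (17.9%, against 3.89% of all genes) and at least 2-fold lower 2 (7.14%, against 5.05%).

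The promoters of MMP10 and IL11, the gene with the largest positive and the gene with the largest negative difference, are shown because both hold the AP-1 motif TGANTCA, the element that JUN and FOS proteins bind, and differ in opposite ways. The sequences are from RefSeq (GRCh38.p14), run 5′ to 3′ on the strand of the gene from 250 bases before to 50 bases after its start, and have the match in capitals. MMP10 lies at chr11:102780579-102780878 on the minus strand with the match beginning 67 bases before the start (TGAATCA), and IL11 at chr19:55370414-55370713 on the minus strand with the match 96 bases before it (TGAGTCA). Neither match overlaps another motif searched, and both strands were read.
MMP10: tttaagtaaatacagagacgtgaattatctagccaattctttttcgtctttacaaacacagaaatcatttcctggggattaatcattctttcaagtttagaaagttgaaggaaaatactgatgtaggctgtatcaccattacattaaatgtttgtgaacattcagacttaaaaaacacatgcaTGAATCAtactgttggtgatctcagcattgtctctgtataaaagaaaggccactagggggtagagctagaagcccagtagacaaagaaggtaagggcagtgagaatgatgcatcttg
IL11: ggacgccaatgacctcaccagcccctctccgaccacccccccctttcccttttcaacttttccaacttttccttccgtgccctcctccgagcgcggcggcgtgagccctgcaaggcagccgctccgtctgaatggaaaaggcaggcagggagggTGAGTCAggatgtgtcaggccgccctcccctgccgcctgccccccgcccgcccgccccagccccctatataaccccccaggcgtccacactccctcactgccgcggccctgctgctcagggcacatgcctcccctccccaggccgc
Of the promoters of analysed genes that RefSeq supplied, 11046 in all, 4.89% held TGANTCA, against 7.76% of all 27305 promoters in the table. The share was 8.43% of 439 promoters of genes at least 2-fold higher and 3.44% of 582 promoters of genes at least 2-fold lower. MMP1, MMP3, AURKA and FOXM1 had no entry. A match shows the letters and not a bound site, and how the motif relates to the differences was not tested.

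Several genes of secreted or surface proteins also stood at the upper end. STC1, a secreted glycoprotein hormone, read 339 to 4435 (3.71). GDF15, a stress cytokine, read 52.7 to 496 and differed by 3.23, and INHBA, the subunit of activin A, read 3386 to 8805 (1.38), a gain of more intensity than all genes but MALAT1. BMP6, a ligand of the bone morphogenetic protein family, read 41.8 to 264 (2.66), BMP2 252 to 575 (1.19) and the inhibitor gene ID2 71.1 to 178 (1.33). IGFBP3, which binds insulin-like growth factors, read 719 to 4726 (2.72). The 19 measured ligands and antagonists of the TGF-beta and BMP group had a median of 0.07. Of these 6 were 2-fold higher (31.6%, against 3.89% of all genes) and 1 was 2-fold lower (5.26%, against 5.05%). HAS2, which makes hyaluronan at the cell surface, read 23.0 to 181 and ESM1, a secreted endothelial-type proteoglycan, 85.4 to 536. LPAR6, a receptor for lysophosphatidic acid, read 109 to 1261 and its relative LPAR2 213 to 502, and the adhesion receptor ADGRE5 659 to 1569.9. In SK-MEL-28 STC1 differed by 0.40, BMP6 by -0.31, HAS2 by -0.63 and LPAR6 by 0.00. A list of 8 measured hyaluronan genes, put together after the values were seen, had 1 gene 2-fold higher (HAS2), 1 lower (HMMR) and a median of -0.23.

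A further group at the top belongs to the aryl hydrocarbon receptor, a ligand-activated factor that turns on genes of xenobiotic breakdown. CYP1B1 read 43.6 to 405 and CYP1A1 62.2 to 374, differences of 3.21 and 2.59. AHR itself read 385 to 934, the repressor AHRR 211 to 618 and TIPARP, which modifies the receptor, 584 to 1743. Its partner ARNT read 181 to 168. Of the 8 analysed genes of this pathway 5 were 2-fold higher and 0 were 2-fold lower, with a median of 1.42, against 0.08 in SK-MEL-28. This list was put together after the values were seen. NQO1, which both this receptor and NRF2 can turn on, read 2689 to 4790.0 (0.83).

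At the lower end stood a cytokine and several matrix and adhesion genes. IL11, a cytokine of the IL6 family, read 1879 to 156, a difference of -3.59. EFEMP1, a fibulin of the extracellular matrix, read 380.1 to 50.5 (-2.91). ITGA4, an integrin subunit that binds fibronectin and VCAM1, read 385 to 74.0. PLAGL1, a zinc-finger factor encoded by an imprinted gene, read 236 to 37.9. TWIST2, a factor of mesenchymal cells, read 127 to 24.9, and MEST, another imprinted gene, 243 to 50.5. The translation termination factor GSPT1 read 3090.3 to 681 and was lower on 3 of its 4 probe sets (0.72 on the one left without _x_at and _s_at probe sets), and RPL22L1, a paralogue of ribosomal protein L22, read 4403 to 927. NEIL3, a DNA glycosylase, read 258 to 54.9 and DCLRE1B, a nuclease of telomeres, 249.7 to 52.7. FAM20C, a secretory-pathway kinase, read 1095 to 184, but only 1 of its 4 probe sets was lower.

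**Figure D2:**
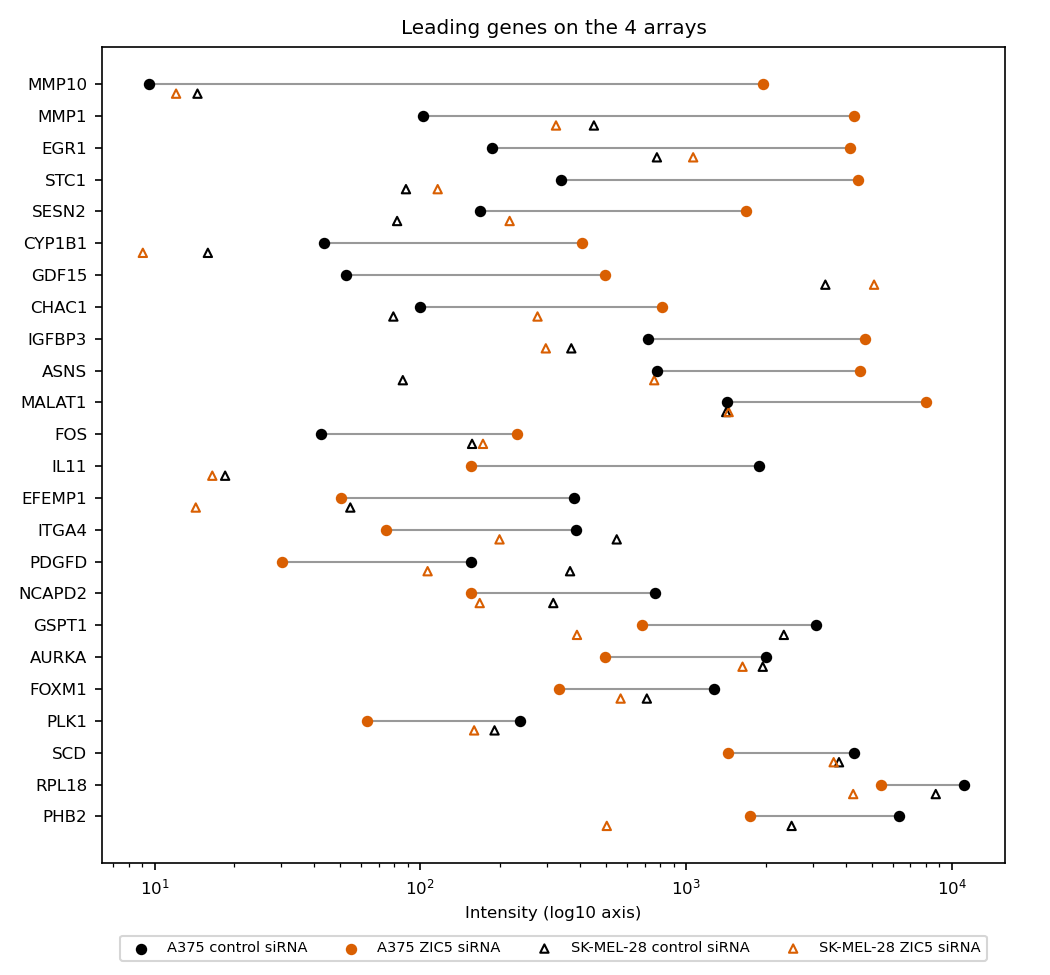
Intensity (log10 axis) of 24 genes on the 4 arrays, with filled circles for the A375 control and ZIC5 siRNA arrays joined by a line and open triangles for the SK-MEL-28 arrays. The A375 points of MMP10 lie at 9.53 and 1943, of MMP1 at 103 and 4284 and of IL11 at 1879 and 156.

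Read by absolute intensity, other genes led. MALAT1, an abundant nuclear long non-coding RNA, read 1426 to 8026, and 9 of its 10 measured probe sets were higher, from -0.45 to 4.85. SLC38A2, an amino acid carrier, read 3699.8 to 9055, and PHLDA1, an ERK-responsive gene, 2437 to 7224. SNRPB2, a U2 snRNP protein, read 3871 to 7984. On the lower side RPL18, a ribosomal protein, read 11143 to 5420.3 (-0.67 with the mean over probe sets), C1QBP, a mitochondrial matrix protein, 7659 to 2264, PHB2, a prohibitin, 6350.0 to 1748 and EIF5A, a translation factor, 6678 to 2391. HMGB1, a chromatin protein, read 10955 to 6109 and TUBA1B, a tubulin, 14435 to 10742. These are values near the top of the scale, and the last pair differed by less than 2-fold.

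Genes of mitosis were lower together. Of 131 measured genes, 124 were lower in the ZIC5 siRNA array, 72 of them (55.0%) at least 2-fold, against 5.05% of all genes, and the median was -1.05. None was 2-fold higher. In SK-MEL-28 the median of the same genes was 0.04 and 1 was 2-fold lower. The 2-fold lower genes were spread over regulators, kinetochore, spindle and cytokinesis. In bulk RNA, fewer dividing cells and less transcript per dividing cell cannot be told apart, and no cell counts accompany the arrays used here.

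Among the regulators, CDK1, the kinase that starts mitosis, read 2126 to 900.2 (-1.24), its cyclins CCNB1 3129 to 1049 (-1.58) and CCNB2 1532 to 516 (-1.57), and CCNA2 881 to 274 (-1.69). The kinases that act on the spindle followed, with AURKA at 2006 to 495, PLK1 at 237 to 63.0 and PLK4, which starts centriole copying, at 420.0 to 136. WEE1, which restrains CDK1, read 745 to 1011 and was higher (0.44). FOXM1, which switches on these genes, read 1272 to 334 (-1.93), and MYBL2, its partner at the MuvB complex, 648 to 374 (-0.79). The topoisomerase TOP2A read 2358 to 982 and the CDK phosphatase CDKN3 886 to 349.

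The structures that these regulators build stood as low. Of 25 genes of the centromere and kinetochore all were lower and 16 at least 2-fold, with SPC25 at 243 to 59.0 and CENPH at 868 to 295, parts of the plates that hold microtubules. Of 25 kinesins and spindle genes all were lower and 17 at least 2-fold, among them KIF15 (510.1 to 134), KIF20A (1061 to 304) and the hyaluronan-binding spindle protein HMMR (1585 to 458). Cytokinesis genes had a median of -1.51 over 7, the lowest of the mitotic groups with the probe sets chosen but -0.92 with the mean over each gene's probe sets, with ANLN, the ring scaffold, at 2024 to 618 and CEP55, which recruits the abscission machinery, at 1933 to 678. The spindle checkpoint had -1.24 over 7 either way, with BUB1 at 568 to 206 and MAD2L1 at 2807 to 1176. Of 18 condensin and cohesin genes 17 were lower, 6 at least 2-fold, with a median of -0.79. NCAPD2, a condensin subunit, read 765 to 156 (-2.30), and STAG1 of cohesin, the 1 higher gene, read 480.3 to 541 (0.17). The anaphase-promoting complex had a median of -0.23 over 14 genes, nearer 0 than the other groups. Of the 14 genes 10 were lower, 4 (28.6%) at least 2-fold, against 5.05% of all genes. Its core subunits ANAPC7 (553 to 511) and ANAPC4 (474 to 612, the highest of the group at 0.37) differed by less than 2-fold. Its activator CDC20 (2732 to 1169) and its inhibitor FBXO5 (528 to 225) were 2-fold lower.

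Mitotic promoters carry an element known as the cell cycle homology region, TTTGAA, through which MuvB holds them silent outside G2 and M, and 3 are shown for genes described above. In each, capitals mark TTTGAA or its reverse complement TTCAAA. CCNB2 lies at chr15:59104896-59105195 on the plus strand and PLK1 at chr16:23678639-23678938 on the plus strand, both with the match beginning 29 bases before the start. CDC20 lies at chr1:43358731-43359030 on the plus strand, with matches at 178 and 65 bases before it. No match overlaps another motif searched.
CCNB2: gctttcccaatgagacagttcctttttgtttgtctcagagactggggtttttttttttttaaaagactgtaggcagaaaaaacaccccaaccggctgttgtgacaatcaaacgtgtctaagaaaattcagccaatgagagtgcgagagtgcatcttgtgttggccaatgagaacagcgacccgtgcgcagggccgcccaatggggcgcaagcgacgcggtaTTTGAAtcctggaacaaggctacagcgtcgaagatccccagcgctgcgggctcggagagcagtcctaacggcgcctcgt
PLK1: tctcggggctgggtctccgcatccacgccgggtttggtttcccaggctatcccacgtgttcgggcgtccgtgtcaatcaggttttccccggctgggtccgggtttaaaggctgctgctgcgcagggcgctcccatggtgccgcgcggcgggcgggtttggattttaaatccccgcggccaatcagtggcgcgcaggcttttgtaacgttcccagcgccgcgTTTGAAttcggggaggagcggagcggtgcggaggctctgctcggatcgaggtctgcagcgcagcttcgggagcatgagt
CDC20: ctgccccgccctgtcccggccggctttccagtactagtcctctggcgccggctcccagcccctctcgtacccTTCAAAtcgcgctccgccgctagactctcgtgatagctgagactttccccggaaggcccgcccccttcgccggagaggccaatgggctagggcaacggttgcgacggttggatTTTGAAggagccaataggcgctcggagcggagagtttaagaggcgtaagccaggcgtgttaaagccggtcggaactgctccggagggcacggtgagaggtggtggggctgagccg
TTTGAA, read on both strands, stood in 61 of 112 mitotic promoters (54.5%), against 9.95% of promoters of all analysed genes and 15.4% of all promoters in the table. For 31 of the 61 a match began within 60 bases before the start, against 186 of the 1099 promoters with TTTGAA among all analysed genes. Split by size, the motif stood in 38 of 62 promoters of mitotic genes that were 2-fold lower (61.3%) and in 23 of 50 of those that were not (46%). The CCAAT box, CCAAT on either strand, stood in 63.4% of mitotic promoters against 36.4%. TGANTCA stood in 0 of the 112. In the promoters of the S phase list below, TTTGAA stood in 6.76% of 74. These shares describe the promoters and were not tested against the differences.

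S phase genes were lower by less. Of 87 genes of the G1/S step and replication 77 were lower, 14 (16.1%) at least 2-fold, and the median was -0.62, against 0.24 in SK-MEL-28, where 63 were higher. The helicase loader CDC6 read 576 to 237 and its brake GMNN 1463 to 615. GINS1, of the replicative helicase, read 1392 to 346, the lowest of the list at -2.01, and its activating kinase CDC7 248 to 103. The MCM ring itself was lower by less, from -0.23 for MCM5 to -1.01 for MCM2. RRM1, the large subunit of ribonucleotide reductase, read 2531 to 1137, TK1, thymidine kinase, 831 to 361 and the polymerase subunit POLE2 279 to 114. CDK2 read 1479.8 to 623 and SKP2, the F-box protein that marks the CDK inhibitor CDKN1B for destruction, 1957 to 498 (-1.97). CCNE1 (0.33) and the early origin subunits ORC2 (0.45) and ORC3 (0.51) were slightly higher. ASF1A, a histone chaperone, read 605 to 1359.8, while its paralogue ASF1B, which dividing cells make, read 888 to 332.

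The brakes of the cycle were split. CDKN1A, the p21 inhibitor, read 1326 to 2945 (1.15) and CDKN1B, the p27 inhibitor, 691 to 1414 (1.03), and the antiproliferative factor BTG1 1936 to 4614. E2F5 and RBL2, a repressor E2F and its pocket protein partner, were lower, at 339 to 76.1 and 488 to 234. Of 25 p53 targets 19 were higher, 5 (20%) at least 2-fold, against 3.89% of all genes, with a median of 0.67. They included SAT1, a polyamine enzyme, at 388 to 868 and the death receptor FAS at 204 to 485, but SESN1 at 185 to 94.9 and TP53I3 at 669 to 319 were lower. Homologous recombination and Fanconi genes had a median of -0.72 over 19, with FANCB at 133 to 59.4 and RAD51AP1 at 1151 to 523 2-fold lower, while the excision gene ERCC5 read 278 to 620.0. Among BCL2 protectors, BCL2A1 read 43.2 to 140.1 and MCL1 2752 to 5565, and the BH3 gene BID read 298 to 138. None of 13 caspases and their inhibitors passed 2-fold.

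Genes of the ATF4 response stood higher as a group. Of 36 measured genes 32 were higher, 20 (55.6%) at least 2-fold, against 3.89% of all genes, with a median of 1.12. In SK-MEL-28 13 were 2-fold higher and the median was 0.67. ATF4 read 3284 to 6583 (1.0035). Of the other 8 members grouped with it as factors, 5 differed by more than it did and 3 by less. DDIT3, a partner of the C/EBP family, read 214 to 1497 (2.80) and CEBPG 155 to 619 (1.998). CHAC1, which breaks down glutathione, read 100.0 to 811 and TRIB3, a pseudokinase that feeds back on ATF4, 893 to 1950.3. Of the enzymes, CTH, which makes cysteine, read 161 to 1742, ASNS, which makes asparagine, 779 to 4512 and CBS, which acts before CTH, 189 to 688. The serine enzymes were higher by less, with PSPH at 534 to 1457 (1.45), PSAT1 at 3825 to 7018 (0.88) and PHGDH at 1092 to 1859 (0.77). SESN2 and SESN3, sestrins that restrain mTORC1, read 168 to 1682 and 45.9 to 584, and DDIT4, another brake of that kinase, 1488 to 4514.

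Among carriers, SLC7A11, which brings in cystine, read 702 to 2427 and SLC1A4, which carries small neutral amino acids, 236 to 768 (0.51 without _x_at and _s_at probe sets). SLC7A5 and its partner SLC3A2, which take up large neutral amino acids, read 1535 to 3314 and 1037 to 2439. The cationic carrier SLC7A1 read 1832 to 1714 (0.52 without _x_at and _s_at probe sets). Of 17 cytosolic tRNA synthetases 12 were higher, 4 at least 2-fold, with WARS1 at 908 to 2992, GARS1 at 3214 to 7165 and CARS1 at 1719 to 3700.2. SARS1 was 2-fold higher on 1 of its 2 probe sets. The mitochondrial synthetases showed no such shift: 10 of 15 were lower, and SARS2 read 239 to 106 (-1.18).

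The C/EBP-ATF response element, the composite site that ATF4 dimers bind, was searched as TGATGNAA on both strands. It stood in 6 of 31 promoters of the ATF4 list (19.4%), against 1.98% of promoters of analysed genes and 3.67% of all promoters in the table. It stood in 4.1% of promoters of genes 2-fold higher and 2.75% of those 2-fold lower. The ASNS and CHAC1 promoters are shown because both hold it. ASNS lies at chr7:97872359-97872658 on the minus strand with the match 68 bases before the start, and CHAC1 at chr15:40953221-40953520 on the plus strand with the match 209 bases before it, on the other strand, so that the printed strand reads TTGCATCA. Neither overlaps another motif searched.
ASNS: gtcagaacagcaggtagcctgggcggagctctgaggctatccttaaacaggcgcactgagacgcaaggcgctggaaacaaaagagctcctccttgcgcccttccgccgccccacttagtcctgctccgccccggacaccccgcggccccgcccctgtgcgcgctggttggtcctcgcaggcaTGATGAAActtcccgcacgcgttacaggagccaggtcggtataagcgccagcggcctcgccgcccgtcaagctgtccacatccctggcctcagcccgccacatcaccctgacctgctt
CHAC1: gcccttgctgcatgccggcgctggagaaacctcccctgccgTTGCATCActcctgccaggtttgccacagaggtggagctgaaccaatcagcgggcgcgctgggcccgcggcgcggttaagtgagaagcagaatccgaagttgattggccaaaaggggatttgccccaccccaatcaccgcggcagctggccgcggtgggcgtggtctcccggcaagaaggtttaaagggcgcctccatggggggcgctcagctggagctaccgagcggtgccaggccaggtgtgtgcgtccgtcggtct
These letters do not show that ATF4 was bound.

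**Figure D3:**
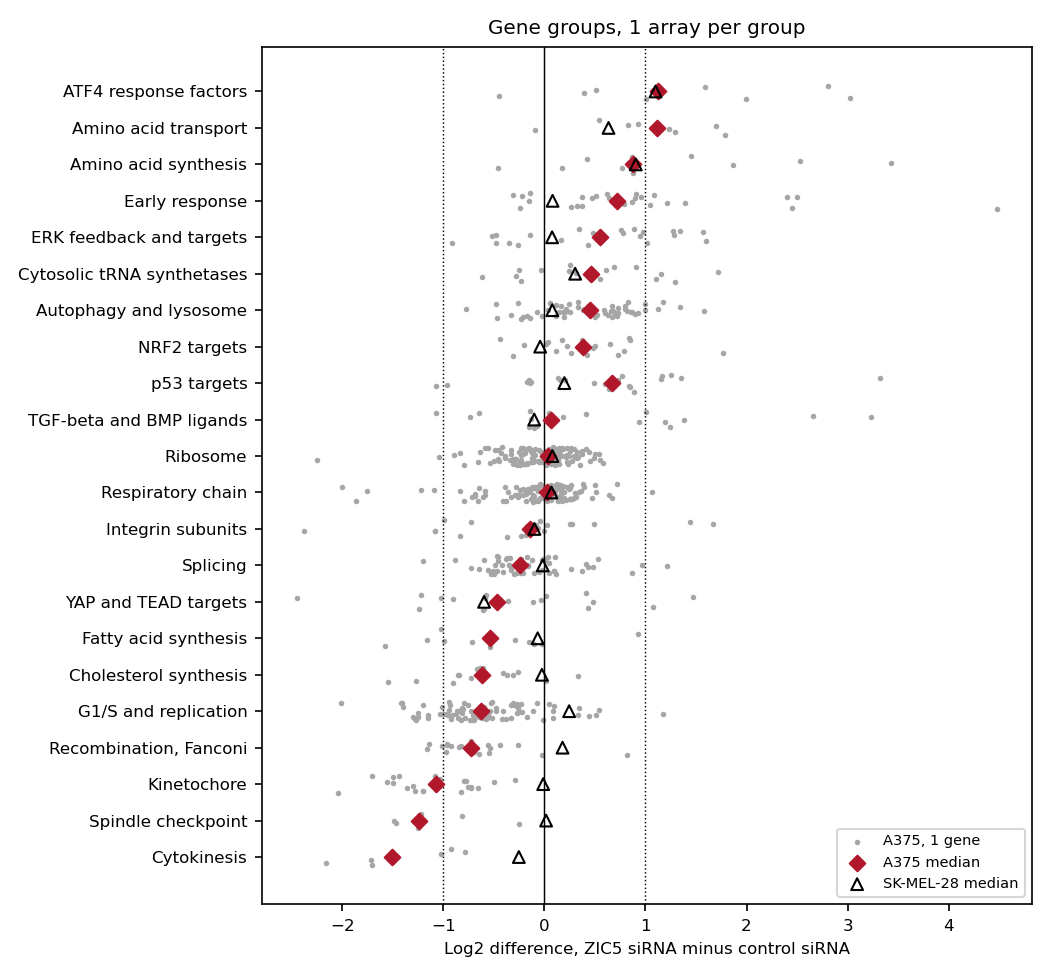
Log2 difference of each measured gene (grey points, A375) in 22 gene groups, with the A375 median as a filled diamond and the SK-MEL-28 median as an open triangle, and dotted lines at the 2-fold limits. The diamonds of the cytokinesis, spindle checkpoint and kinetochore groups lie at -1.51, -1.24 and -1.07, and that of the ATF4 factors at 1.13.

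Early response genes were higher in the A375 ZIC5 siRNA array. Of 26 measured, 21 were higher, 8 (30.8%) at least 2-fold, against 3.89% of all genes. Their median was 0.71, against 0.08 in SK-MEL-28. EGR1 read 186 to 4152 (4.48), EGR3 122 to 646 (2.41) and EGR4 34.7 to 80.3. FOS read 42.4 to 231 and ATF3, a stress-induced partner of JUN, 104 to 591 (0.91 without _x_at and _s_at probe sets), while JUN itself read 609.5 to 1137 (0.90) and FOSL1 1001 to 908 (-0.14). The early gene IER2 read 2187 to 4628 and the messenger-decay factor ZFP36 247 to 509. Feedback inhibitors of ERK stood on the same side: DUSP6, which removes phosphate from ERK, read 2334 to 5674, SPRY4 813 to 2065 and SPRED1 774 to 1562. DUSP7, its relative, was lower at 357 to 189.8, as were SPRY1 (-0.52) and ETV4 (-0.48). Of 23 feedback and ERK target genes 16 were higher and 6 (26.1%) at least 2-fold, against 3.89% of all genes. Of 17 measured genes of the cascade itself none was 2-fold higher, and the phosphatase PTPN11 read 2973 to 1443 (-1.04).

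Cytokines and their receptors were split gene by gene. IL1B read 63.2 to 276, IL1A 349 to 1237, IL24 757 to 2464 and the chemokines CXCL8 331 to 818 and CXCL3 88.4 to 201. CXCL1, a close relative, read 270.1 to 273 (0.01), and CCL20 was lower at 100.1 to 24.2. The receptors IL7R (395 to 94.1) and IL1RAP (237 to 91.1) were lower. Of 14 NF-kB factors and inhibitors 11 were higher but 1 at least 2-fold, NFKBIZ at 407 to 1038. In SK-MEL-28 CXCL8 differed by -3.01, the reverse of A375 (1.31, or 0.94 with the mean over probe sets). Of 28 interferon-stimulated genes 14 were higher and 14 lower by any amount. At least 2-fold lower were 3 (10.7%, against 5.05% of all genes), and 0 were 2-fold higher (against 3.89%). The 3 were IFIT1 at 63.6 to 22.6 (-1.49, or -0.99 with values under 32 set to 32), MX1 at 97.9 to 46.9 and GBP1 (-1.055).

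Autophagy and lysosome genes were higher by small amounts. Of 61 genes 50 were higher, but 4 at least 2-fold, with a median of 0.44 against 0.08 in SK-MEL-28. MAP1LC3B, a protein of the autophagosome membrane, read 1009 to 3009.9, ULK1, the initiating kinase, 182 to 460.3 and OPTN, a cargo receptor, 261 to 591. The cathepsins CTSB (1208 to 2302) and CTSL (1064 to 1979) differed by 0.93 and 0.89, and CTSK (139 to 80.9) was lower by less than 2-fold. TFE3, a factor of lysosomal genes, read 809 to 1472 and its relative TFEB 65.3 to 56.2. Of 18 genes of the mTOR complexes and their upstream regulators 12 were higher, with a median of 0.31, and the folliculin gene FLCN read 74.5 to 194 on the probe set used and was higher on 2 of 3. The AMPK subunit PRKAG2 was lower at 233 to 89.7.

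Lipid synthesis genes were lower. Of 16 cholesterol pathway genes 14 were lower, with a median of -0.62 and 2 at least 2-fold lower, ACAT2 (757 to 259) and MSMO1 (890.0 to 369). HMGCS1, an early enzyme, read 230.4 to 289.6 and was not among them. Of 11 genes of fatty acid synthesis and desaturation 10 were lower, 3 at least 2-fold: SCD, the desaturase, read 4279 to 1434, FASN, fatty acid synthase, 939.6 to 419 and the elongase ELOVL6 759 to 374. With the mean over its probe sets FASN differed by -0.61. ACSL1, which activates fatty acids, read 442 to 842. ABCA1, which exports cholesterol, was higher at 84.1 to 220.0. Neither group had a matching median in SK-MEL-28, where the values were -0.02 and -0.07, and the difference between lines was not tested.

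Sugar metabolism stood slightly low. Of 29 glycolysis and related genes 23 were lower, with a median of -0.24. At least 2-fold lower were 2 (6.90%, against 5.05% of all genes), ALDOC (968 to 346) and PFKFB4 (1609.8 to 770.1). PDK4, which closes the entry of pyruvate to the mitochondrion, was the 1 gene of the 29 at least 2-fold higher, at 278 to 719. TXNIP, a brake on glucose uptake listed apart from the 29, was also higher, at 196 to 650.0. NRF2 targets were higher in 17 of 20 cases with a median of 0.38, and HMOX1, haem oxygenase, read 76.5 to 260.4, the only 2-fold one. Of 36 heat shock genes none was 2-fold higher and HSPA2 (73.3 to 23.8) was 2-fold lower. The sensor ERN1, of the unfolded protein response, read 48.2 to 238 and HERPUD1 874 to 2349.5 (0.92 and 0.97 with that mean), but the chaperone HSPA5 read 5618 to 6033 (-0.54 with the mean over its probe sets), and folding genes had a median of -0.03 over 19.

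Adhesion and matrix genes differed strongly but without a shared direction. Of 22 integrin subunits 2 were 2-fold higher, ITGA5, a fibronectin receptor subunit, at 303 to 965 and ITGA2, a collagen receptor subunit, at 867 to 2349.6. ITGA4, ITGB3 (327 to 155) and ITGB5 (1336 to 629) were 2-fold lower. Adhesion scaffolds split too, with TLN2 at 100.3 to 352 and FERMT1 at 510.3 to 1456 higher and FERMT2 at 641 to 199 and VCL, vinculin, at 1959.7 to 779.9 lower. Without _x_at and _s_at probe sets ITGB3 differed by -0.66 and ITGB5 by -0.41, and with the mean over probe sets FERMT2 differed by -0.87. Matrix genes with higher readings were VCAN, versican, at 65.5 to 382 and SPP1, osteopontin, at 140.3 to 717, and those with lower readings were COL5A1 at 314 to 89.6, IGFBP7 at 395 to 116 and LUM. Of 20 contractile genes 11 were higher and 9 lower, with a median of 0.07, and 0 were 2-fold higher. CNN3 at 2057 to 485, MYL9 at 60.1 to 21.7 and ACTA2 at 172 to 63.3 were the 3 at least 2-fold lower. The MYL9 difference of -1.47 became -0.91 with values under 32 set to 32 and -0.36 without _x_at and _s_at probe sets. Targets of YAP and TEAD had a median of -0.47 over 18 genes, with ANKRD1 at 193 to 35.4, CCN1 at 2859 to 1228 and AXL, a receptor kinase, at 4773 to 2016, but CCN2 was level at 1348 to 1365. In all 4 of the 18 were 2-fold lower and 2 were 2-fold higher, NT5E, a surface nucleotidase, at 650.4 to 1796 and GADD45B, a stress-response gene, at 181 to 380.2. Their median in SK-MEL-28 was -0.60. Caveolins were lower, with CAV1 at 2850.2 to 1352 and CAV2 at 747 to 338.

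Lineage and development genes followed no single line. SOX10 and PAX3 stood above control and MITF below it (0.89, 0.65 and -0.60), all by less than 2-fold. PAX3 differed by 0.20 with the mean over its probe sets and MITF by -0.21 with the level minimum taken over the A375 arrays. OCA2, a melanosome channel gene, read 123 to 661 and GPNMB 586 to 1215, while ERBB3 (2320.3 to 1168) and POU3F2 (179 to 71.9) were lower. SNAI2, a factor of the neural crest and of epithelial-mesenchymal change, read 21.6 to 76.9 (1.83, or 1.26 with values under 32 set to 32) while TWIST2 was lower and ZEB1 read 410.0 to 578. In the Notch group HEY1 read 171 to 691 and HEY2 30.4 to 79.9, both targets of the pathway, but HES1 was level at 347 to 351. The Wnt receptor FZD2 read 290.4 to 91.4 and the antagonist DKK3 257 to 118. The calcium-binding S100P read 50.6 to 401, and S100A2 2813 to 830.5 and S100A3 301 to 84.4 were lower. The ligand VEGFC read 221 to 444 and KITLG, the KIT ligand, 94.0 to 40.4.

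Housekeeping machinery differed little as groups, although a few members differed by much. Cytosolic large-subunit ribosomal proteins had a median of 0.06 over 35 genes and small-subunit ones 0.09 over 22, and no member was 2-fold higher. For 117 respiratory chain and other mitochondrial genes the median was 0.02. Of these 5 (4.27%, against 5.05% of all genes) were at least 2-fold lower and 1 at least 2-fold higher. Among the lower ones were SUCLG2 (1362 to 340.4) and DLAT (824 to 385), enzymes of pyruvate and succinate metabolism. Proteasome genes had a median of -0.10 over 35, but PSMD10 read 1353 to 325. SELENOF, a selenoprotein of the endoplasmic reticulum, read 1286 to 327, and OCRL, a phosphatase of endosomes, 376 to 93.0, beside 69 trafficking genes with a median of 0.12. Genes of RNA processing stood slightly low: 46 of 64 splicing factors were lower with a median of -0.24, and nuclear pore and transport genes had -0.27 over 44, with NDC1 at 1285 to 379 and RCC1 at 541 to 235. Components of the siRNA machinery itself had a median of 0.16 over 20, and TUT7, which adds uridines to RNA, read 297 to 778. KDM7A, a histone demethylase, read 67.8 to 357 and SMARCA1, a chromatin remodeller, 636 to 183.

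Most A375 genes past 2-fold had the same sign in SK-MEL-28. They were picked by their A375 size, so smaller medians in SK-MEL-28 cannot be separated from that choice. Of the 537 higher genes, 407 were also higher in SK-MEL-28, with a median there of 0.30. There 43 were also 2-fold higher, 8.01% of the A375 list, against 0.776% of all genes, and 40.2% of the SK-MEL-28 list. Of the 697 lower genes, 559 were also lower in SK-MEL-28, with a median there of -0.40. There 159 were also 2-fold lower, 22.8% of the A375 list, against 2.12% of all genes, and 54.5% of the SK-MEL-28 list. The lines have separate control arrays. The genes whose differences lay furthest apart were, on the A375-higher side, MMP10, MMP1, CXCL8, ASMTL, CYP1B1 and EGR1, by 7.94 to 4.02. On the other side IL11, the lncRNAs LINC02249 and COSMOC, SERPINB7 and PXYLP1 lay apart by -3.43 to -2.66. The medians of the mitosis list, -1.05 in A375 and 0.04 in SK-MEL-28, lay furthest apart among the larger lists, and no difference between lines was tested.

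**Figure D4:**
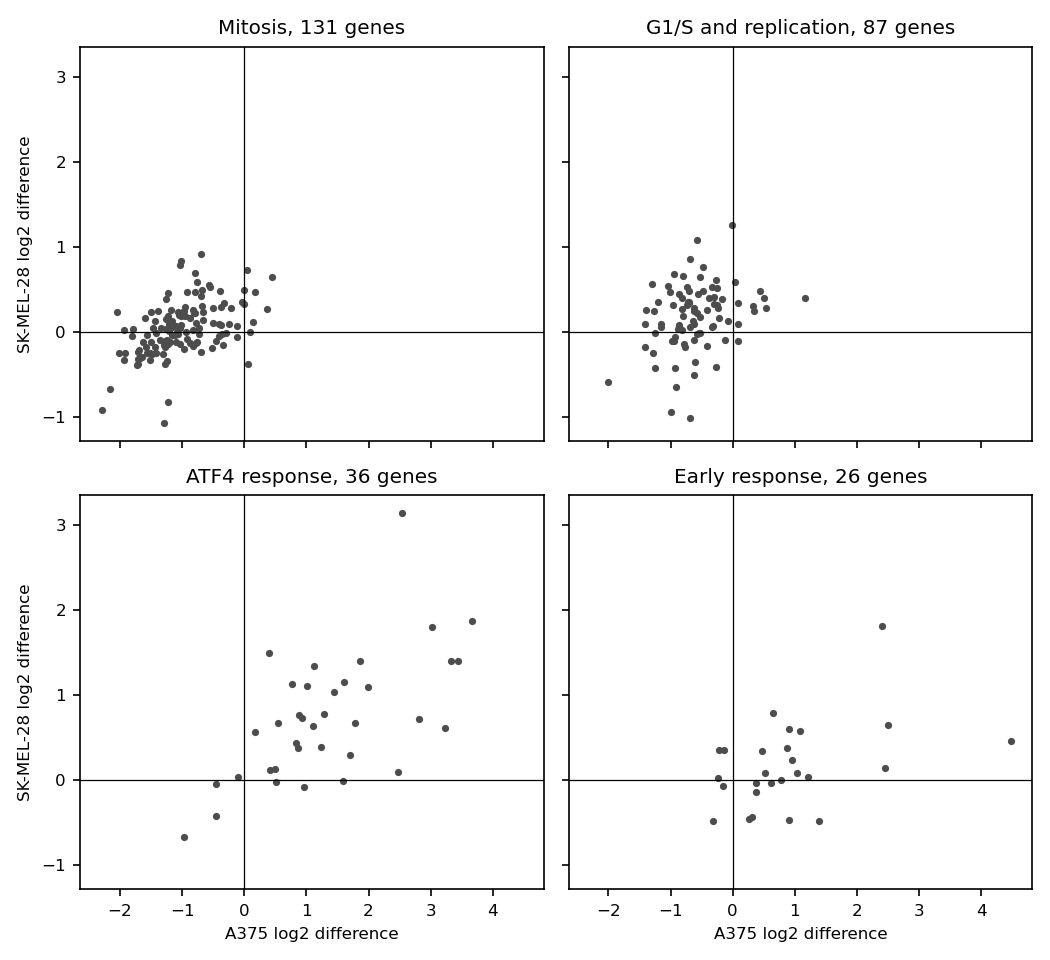
Log2 difference in A375 (x axis) against SK-MEL-28 (y axis) for the genes of 4 groups, 1 point per gene: mitosis (131 genes), G1/S and replication (87), ATF4 response (36) and early response (26), with lines at 0. Mitosis points spread to the left with SK-MEL-28 values around 0.04, and ATF4 points lie mostly to the upper right, with medians of 1.12 and 0.67.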

How the data were processed

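RNA was taken 48 h after siRNA transfection of A375 and SK-MEL-28 cells and 100 ng of each sample went into biotin labelling for the array, as the labels' protocols state. Each deposited intensity is linear, 1 value for a probe set on an array, and per the submitters' processing notes came from RMA, run in Affymetrix Expression Console. No version is given in the sources used here. RMA fits all arrays together, so an array's values are not independent of the others. Log2 of the deposited intensity was taken here with Python 3.11.15, numpy 2.4.6 and pandas 2.3.3, the loess alternative used statsmodels 0.14.6, and figures used matplotlib 3.10.9.

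The platform annotation given with the data paired 41091 of 54613 probe sets with 1 gene, 1801 with several and 11721 with none. A gene was represented by its single-gene probe set of highest mean log2 intensity over the 4 arrays, with a minimum of 5. Samples were grouped by their titles, 1 array per group. No test was made, and the number of arrays limits the precision. The labels do not say whether the samples came from separate cultures.

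The members and the 51 gene lists (2567 genes, of which 2191 were analysed) were chosen with earlier results of these data known, and the aryl hydrocarbon receptor and hyaluronan lists were added after the values were seen. The rule for named genes took the ZIC family, the 30 highest and 30 lowest A375 differences, the 15 and 15 after intensities under 32 were set to 32, the 10 and 10 largest changes of intensity, the 10 and 10 furthest from SK-MEL-28, the 2 on each side of the limits, and the 6 highest and 6 lowest members of each subgroup. Other named genes, such as pigment markers, level members, MYBL2, MMP12 and MMP13, were chosen after their values were seen, and not every gene of the rule is described. Genes on the Y chromosome and XIST, 11 analysed genes, were counted but are neither named nor plotted. The step that picks probe sets and applies the size rule was tested on simulated data. Promoters of 11046 analysed genes were taken from RefSeq (GRCh38.p14) and searched on both strands. Alternatives were no level filter, a minimum of 7, a minimum over the A375 arrays alone, intensities under 32 set to 32, loess of the difference on level (span 0.4), median centring, the mean over a gene's probe sets, and leaving out probe sets ending in _x_at or _s_at.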

Additional observations from a re-analysis of the deposited data

Results flagged for a closer look

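The genes below passed 2-fold in opposite directions in the lines, a difference that was not tested with 1 array per group. The A375 minus SK-MEL-28 difference was 4.31 for the chemokine CXCL8 (1.31 and -3.01), 2.34 for IL17RD, a receptor that restrains FGF signalling (1.24 and -1.10), and 2.11 for PDE2A, a cyclic nucleotide phosphodiesterase (1.05 and -1.06). It was 2.91 for PLCXD2 (1.65 and -1.25), -3.3 for the lncRNA LINC02249 (-2.20 and 1.09) and -2.66 for the phosphatase PXYLP1 (-1.49 and 1.17). With intensities under 32 set to 32, the SK-MEL-28 difference of PLCXD2 became 0, that of PDE2A -0.63 and the A375 difference of LINC02249 -0.73, so those 3 no longer passed 2-fold in both lines. With the mean over probe sets the A375 difference of CXCL8 was 0.94, also short of 2-fold.

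Among gene groups, medians of opposite sign that were each past 0.25, the spread between probe sets, were found for origin licensing and chromatin assembly, and the difference between lines was not tested. The origin licensing genes had a median of -0.66 in A375 and 0.37 in SK-MEL-28, an A375 minus SK-MEL-28 value of -1.03. The chromatin assembly genes had -0.66 and 0.36, a value of -1.01. They did not stand alone: other groups had opposite signs with an SK-MEL-28 median nearer 0, among them the CMG helicase (-0.82 and 0.24), the polymerases (-0.62 and 0.24), nucleotide supply (-0.52 and 0.12) and the G2/M regulators (-1.20 and 0.15).

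Probe sets with no gene name were used in no comparison above. Of 3820 at the level minimum, 257 (6.73%) were at least 2-fold higher in A375, against 3.89% of named genes, and 97 (2.54%) at least 2-fold lower, against 5.05%. Together they came to 9.27%, against 8.95%, with the balance of higher and lower turned round.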

How the results depend on the processing

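No paired analysis was possible because the results are of A375 alone, where each group held 1 array, and no array could be left out. A fit over both lines with the line as a block would describe the lines together and was not run. The number of genes 2-fold lower was 444 with a level minimum of 7, where fewer genes were tested, and the other 15 counts under the alternatives stayed within 1.5 times of the reported ones. Over the alternatives, 955 values of 124 subgroup medians moved by less than 0.25, the spread between probe sets, and 36 moved by more. The sign turned in 61 values of 33 medians, 54 of them moved by less than that spread and 7 by more. The median of the melanocyte lineage factors turned from 0.25 to -0.027 with a minimum of 7, and the other turned ones past the spread were ADAM genes, mismatch and excision repair, BCL2 protectors, growth factor ligands, matrix glycoproteins and nonsense-mediated decay. With that minimum the medians were 0.77 for membrane-type MMPs, 0.32 for FOS and JUN, 2.86 for mTORC1 brakes and secreted factors, 0.67 for p53 control, 0.66 for chemokines, 1.70 for interleukins, 0.39 for matrix glycoproteins and 1.003 for TGF-beta and BMP ligands. Without _x_at and _s_at probe sets they were 0.93 for secreted MMPs, 0.77 for membrane-type MMPs, 0.52 for dual-specificity phosphatases, 1.59 for ATF4 factors, 0.68 for amino acid transport, 0.95 for mTORC1 brakes, 0.77 for CDK inhibitors, -0.17 for checkpoint genes and 0.11 for mismatch and excision repair. In the same setting they were 0.16 for p53 control, 0.18 for the ATG8 family, -0.50 for the invasive programme, -0.24 for growth factor ligands, -0.12 for collagen crosslinking, 0.058 for HIF targets, -0.40 for nonsense-mediated decay and 0.76 for neuroendocrine proteins. With the mean over probe sets they were 0.51 for ETS factors and other ERK targets, -0.92 for cytokinesis, -0.78 for nucleotide supply, 0.16 for p53 control, -0.056 for BCL2 protectors and 0.20 for snoRNA host genes. With no level filter they were 1.60 for mTORC1 brakes, 0.059 for snoRNA host genes and 0.13 for GPCRs, and with the minimum over the A375 arrays -0.27 for ADAM genes. The cause was not tested. Loess and median centring moved no subgroup median past that spread.

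Among the genes named, GSPT1 turned to 0.72 without _x_at and _s_at probe sets, and 91 values of the 254 genes moved by more than 0.25. Of the 2-fold ones, 25 were no longer 2-fold with the mean over probe sets, with CDK2 at -0.83, DLAT -0.93, LPAR2 0.86, FLCN 0.67, GPNMB 0.81, ITGB3 -0.69, ITGB5 -0.81, MCL1 0.78, PTPN11 -0.84, RBL2 -0.75, RCC1 -0.79, SPRED1 0.74, PFKFB4 -0.82 and FAM20C -0.54 among them. Without _x_at and _s_at probe sets it was 10, with loess 8 and with intensities under 32 set to 32 it was 4. Intensities near 32 and lower limit what can be read of a fold size.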
